A study of Neurospora crassa with 10 samples.

Results

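Light lowers many transcripts of the bread mold *Neurospora crassa*, and the 82 genes described here are those that were still near their dark level after 15 min of light and then at least 2-fold below it at 60 and 120 min. They were selected on these values. In each replicate, r is log2((FPKM in light + 1)/(FPKM in the dark + 1)), where FPKM is the number of fragments scaled to the length of the transcript and to the mapped fragments of the sample. A gene was taken when r was above -0.5 at 15 min and at or below -1 at both 60 and 120 min in both replicates. The rule found 87 of the 9728 genes, and 5 of these were left out because they carry *rbg* symbols. These symbols mark ribosome biogenesis genes. The 10 other loci that the rule leaves out did not pass it. The 82 genes are 0.843% of all genes, and all 82 are among the 7688 expressed genes, those whose replicates averaged above 1 FPKM in the dark or at any time in the light. The samples are wild-type mycelium of strain FGSC2489 from shaken liquid cultures that were inoculated with conidia and grown in the dark. They were harvested unlit, or after white fluorescent light had been on for 15, 60, 120, and 240 min. Each of the 5 time points has 2 samples, replicate 1 and replicate 2, which makes 10 samples of 1 genotype with no mutant or drug. Poly(A) RNA came from oligo-dT cellulose in replicate 1 and from a magnetic bead kit in replicate 2, so the replicates differ both as separate cultures and in the isolation method.

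*N. crassa* senses blue light with the White Collar complex, a photoreceptor that is also a transcription factor, and light starts carotenoid synthesis and favors the formation of conidia, the asexual spores. Several of the processes met below work as follows. Cytosolic acetyl-CoA is made from citrate by ATP citrate lyase, is carboxylated to malonyl-CoA by acetyl-CoA carboxylase, and is built into fatty acids by fatty acid synthase, while the mevalonate pathway turns acetyl-CoA into sterols. RNA polymerase I makes the large precursor of rRNA, which is cut, modified, and folded in the nucleolus by many assembly factors. The DNA replication genes supply deoxynucleotides and load the MCM helicase on origins.

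The deposited values are FPKM with no read counts, so depth cannot be read from them, and replicate 1 was sequenced more deeply than replicate 2. Across genes, log2(FPKM + 1) of the replicates had Pearson correlations between 0.968 and 0.978 up to 120 min of light and of 0.803 at 240 min. The median r over expressed genes at 240 min was -0.04 and -0.26 in replicates 1 and 2, and it lay between -0.09 and -0.04 at the other times. The conidial genes *con-6*, *con-8*, *con-10*, *con-13*, and *eas*, taken as markers of conidia, summed to 120.0 and 95.9 FPKM in the dark, 898 and 1270 at 15 min, 4416 and 5070 at 60 min, 2902 and 2148 at 120 min, and 568 and 111 at 240 min. The sum was highest at 60 min and next highest at 120 min, the times at which the 82 genes were low. It was also above the dark at 15 min, when the 82 genes were still near their dark level. Single markers differed, as *con-10* had 34.5 and 158 FPKM at 15 min and 33.5 and 102 at 120 min. *con-13* stayed under 1 FPKM in every sample. The sum is mostly *con-6*, which had 3408 and 3456 FPKM at 60 min. The paper describes *con-6* and *con-10* as genes that light itself raises strongly, so the sum cannot be read as an amount of conidia. The 240 min sample of replicate 2 stands apart from its partner in the results below. In that sample *con-8* had 16.6 FPKM, against 33.8 and 42.7 in the dark samples, while *con-10* had 15.2, against 0.944 and 4.11, and *con-6* had 10.2, against 13.8 and 3.36. In bulk RNA, fewer cells of a kind and less RNA per cell cannot be told apart, and the part of either in these values was not tested.

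The 82 genes together made up 0.582% and 0.366% of all FPKM in the dark samples, 0.472% and 0.328% at 15 min, 0.125% and 0.0924% at 60 min, 0.140% and 0.109% at 120 min, and 0.232% and 0.446% at 240 min. The summed FPKM of all genes was itself higher at 60 min, with 944127 and 1009370, than in the dark, with 570422 and 729103. The median r of the 82 genes was -0.24 and -0.25 at 15 min in replicates 1 and 2, -1.46 and -1.42 at 60 min, -1.53 and -1.40 at 120 min, and -1.07 and -0.19 at 240 min. At 60 min the 82 genes ranged from -2.77 to -1.01 in replicate 1 and from -2.38 to -1.02 in replicate 2, and at 120 min from -3.0 to -1.01 and from -2.56 to -1.03. Between 60 and 120 min, 34 genes went further down in both replicates, 26 came up in both, and the others differed in sign between the replicates. Each time in the light was tested against the dark with limma on log2(FPKM + 1) of all expressed genes, and a gene was called at an adjusted p of at most 0.2, the threshold the study used, with p-values adjusted over all genes and the 4 comparisons. It called 39 of the 82 genes lower at 60 min (3.55% of all tested genes) and 42 at 120 min (3.59%), or 72 (22.1%) and 78 (19.5%) in a fit that takes the replicates as blocks, but the same contrasts selected the genes, so nothing is read from these counts.

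**Figure D1:**
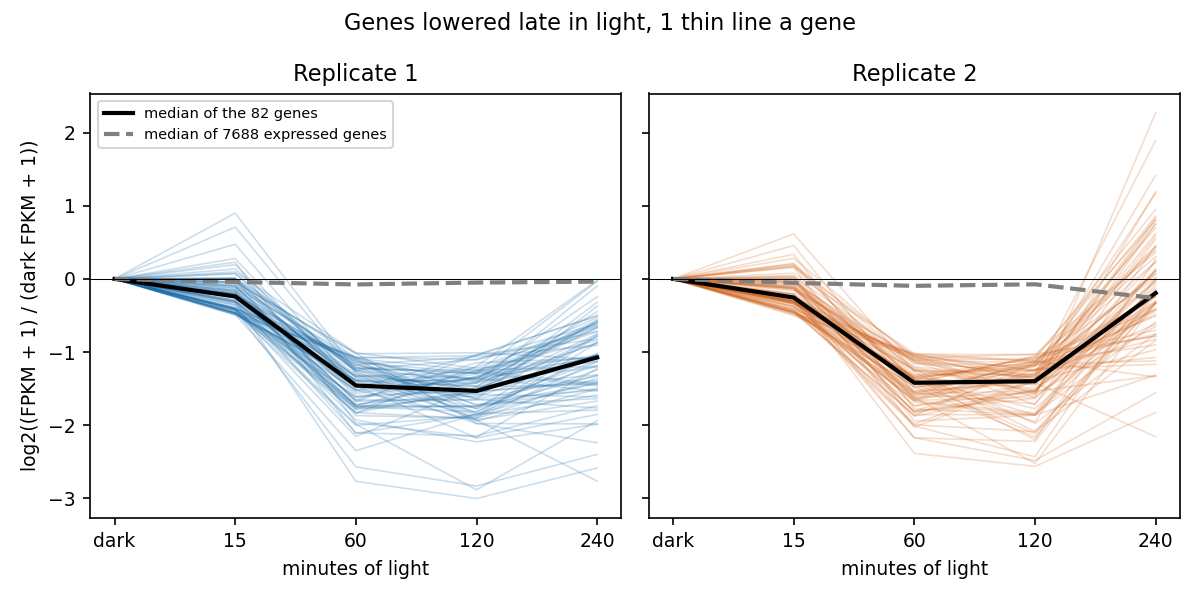
r, the log2 ratio of FPKM + 1 to the dark within a replicate, is plotted against minutes of light (times evenly spaced) for each of the 82 genes, with the medians of the 82 genes (solid) and of all 7688 expressed genes (dashed). The 82 genes have medians of -1.53 and -1.40 at 120 min in replicates 1 and 2, and their lines spread apart at 240 min in replicate 2.

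At 15 min, 60 of the 82 genes were already slightly below the dark in both replicates and 9 were above it in both. By the mean of the replicates the highest of these 9 was *cys-14*, a sulfate permease, with r of 0.71 and 0.61, followed by NCU09259, of no known function, with 0.90 and 0.21, and *cor1*, for the actin-binding protein coronin, with 0.47 and 0.46. The genes nearest inside the 15 min threshold were NCU08416 with -0.48 and -0.50, *ppi-1* with -0.50 and -0.20, and NCU01675 with -0.49 and -0.35. Just outside it lay *fkr-4* with -0.50 and -0.28, *cyt-5* with -0.51 and -0.00243, and *paa-10* with -0.51 and -0.49, and 222 genes missed the rule by this threshold alone. At 60 min the nearest inside were *pls-1* (-1.01 and -1.31), NCU06327 (-1.02 and -1.27), and NCU06934 (-1.38 and -1.02), and the nearest of 101 genes outside were NCU06112 (-1.12 and -0.99), NCU01455 (-1.09 and -0.96), and NCU06382 (-1.10 and -0.95). At 120 min the nearest inside were *eif4E* (-1.01 and -1.38), *gt24-1* (-1.10 and -1.03), and NCU09388 (-1.21 and -1.03), and the nearest of 79 genes outside were *kpr-1* (-0.98 and -1.06), *crf4-1* (-0.97 and -1.16), and *fhb-1* (-0.97 and -1.11). The edge of the group is therefore not a gap in the values.

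The lowest values belonged to the synthesis of acetyl-CoA and fatty acids, where 6 of the 11 genes in a list made from symbols and product names passed the rule. ATP citrate lyase has 2 subunits, and NCU06783, named ATP citrate lyase, had 208 and 146 FPKM in the dark, 174 and 119 at 15 min, 72.2 and 53.8 at 60 min, 53.4 and 32.9 at 120 min, and 72.7 and 125 at 240 min. For NCU06785, named ATP-citrate synthase subunit 1, the dark samples had 129 and 97.5 FPKM, the 15 min samples 105 and 74.8, the 60 min samples 29.3 and 23.7, the 120 min samples 28.5 and 22.2, and the 240 min samples 38.2 and 54. Both stood well under the dark from 60 min onward in replicate 1, and in replicate 2 NCU06783 was back near its dark level at 240 min. NCU08535, acetyl-CoA carboxylase, which makes malonyl-CoA, had 10.2 and 5.41 FPKM in the dark, 8.13 and 4.15 at 15 min, 1.93 and 0.995 at 60 min, 1.38 and 0.761 at 120 min, and 1.82 and 1.58 at 240 min. The fatty acid synthase genes *cel-1* (NCU07308, alpha subunit) and *cel-2* (NCU07307, beta subunit) lie next to each other on a chromosome and had nearly the same course. For *cel-2*, the dark samples had 50.8 and 21.2 FPKM, the 15 min samples 40.7 and 18.1, the 60 min samples 6.62 and 3.24, the 120 min samples 5.47 and 2.75, and the 240 min samples 7.64 and 5.25. The values of *cel-1* were 48.2 and 18.9 FPKM in the dark, 35.7 and 15.2 at 15 min, 7.29 and 3.42 at 60 min, 5.92 and 2.56 at 120 min, and 8.34 and 5.77 at 240 min. For both genes the 240 min values, like those at 60 and 120 min that the rule used, lay below both dark values, and r at 120 min was -3.0 and -2.56 for *cel-2* and -2.83 and -2.48 for *cel-1*. NCU09497, a fatty acid desaturase that adds double bonds, had -2.88 and -2.52 at 120 min, and its levels were 55.8 and 51.7 FPKM in the dark, 41.9 and 46.5 at 15 min, 13.3 and 16.1 at 60 min, 6.70 and 8.18 at 120 min, and 13.8 and 40.9 at 240 min.

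**Figure D2:**
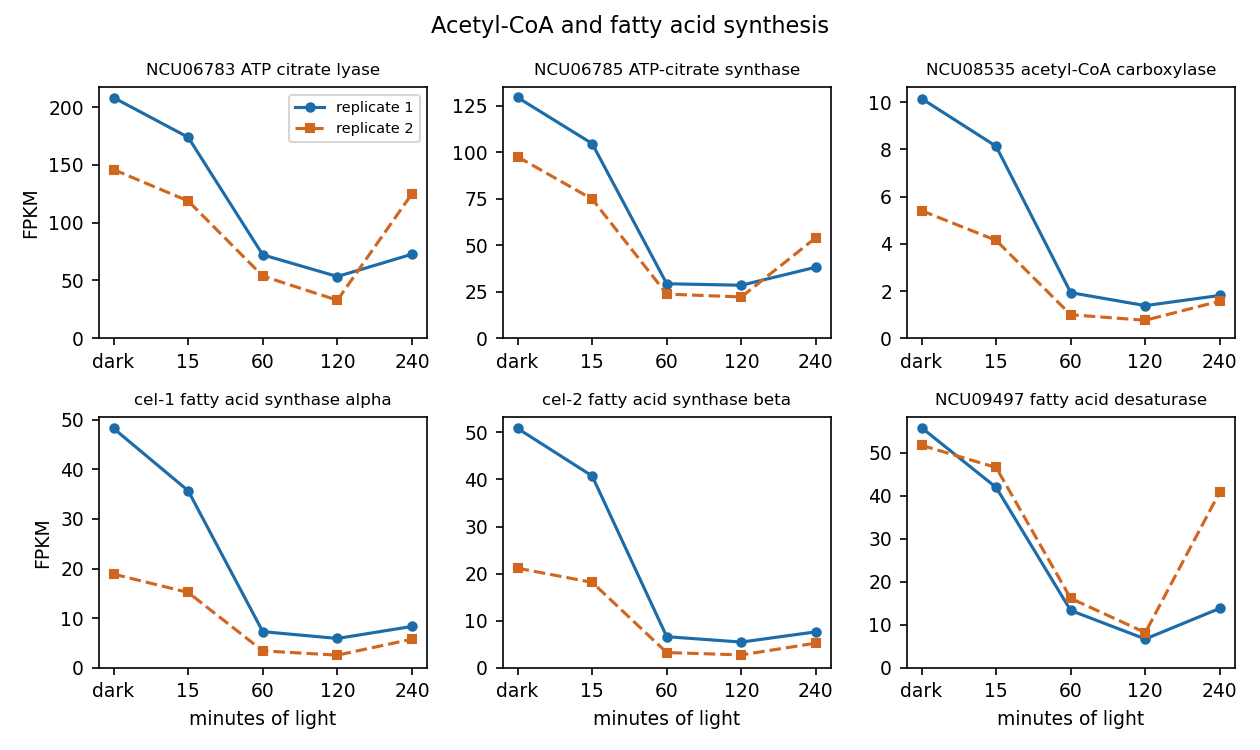
FPKM is plotted against minutes of light (times evenly spaced) for the 6 genes of acetyl-CoA and fatty acid synthesis, replicate 1 as circles and replicate 2 as squares. All 6 are lowest at 120 min in both replicates, and at 240 min the *cel* genes stay low in both replicates while NCU06783 and NCU09497 reach 125 and 40.9 FPKM in replicate 2.

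The other 5 genes of that list did not meet the rule, and limma called 1 of them lower at 60 min and 3 at 120 min, or 4 and 4 with the block. Their median log2 fold change was -0.99 at 60 min and -1.41 at 120 min, against -0.09 and -0.07 over all tested genes. With the block, 22.1% of all tested genes were called lower and 14.4% raised at 60 min. At 120 min these shares were 19.5% and 11.6%, and the block counts of every list below are to be read beside them. The lists were chosen with earlier results of these data known, so the shares are no independent background for any list. The fatty acid elongase NCU08976 had a log2 fold change of -1.93 ± 0.29 (SE, adjusted p = 0.0494, 0.00828 with the block) at 120 min. The delta-12 desaturase gene *ods* had -1.82 ± 0.37 (SE, adjusted p = 0.0943, 0.0164 with the block), and the acyl-CoA desaturase NCU05259 had -1.41 ± 0.35 (SE, adjusted p = 0.154, 0.0180 with the block). *acu-5*, for acetyl-CoA synthetase, had -0.74 ± 0.58 (SE, adjusted p = 0.728, 0.0634 with the block), and the elongase *gsl-14* had -0.78 ± 0.86 (SE, adjusted p = 0.833, 0.650 with the block). The difference between these 5 genes and the 6 selected ones is set by the selection and was not tested.

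Among 20 sterol synthesis genes, 3 were selected, and they sit at different steps. *erg-14* encodes HMG-CoA reductase, the enzyme that commits acetyl-CoA units to mevalonate, and had 38.2 and 26.3 FPKM in the dark, 32.1 and 21.1 at 15 min, 11.5 and 8.28 at 60 min, 16.7 and 11.3 at 120 min, and 17.5 and 35 at 240 min. *erg-6*, named squalene synthetase, joins farnesyl units into the first sterol precursor. For *erg-6*, the dark samples had 20.4 and 11.9 FPKM, the 15 min samples 18.4 and 9.41, the 60 min samples 5.72 and 3.07, the 120 min samples 5.79 and 3.19, and the 240 min samples 6.46 and 61.1. Its 240 min values lay on opposite sides of the dark values. *erg-4*, named sterol 24-C-methyltransferase, had 39.8 and 54.7 FPKM in the dark, 38.5 and 47.2 at 15 min, 14.1 and 11.4 at 60 min, 9.37 and 10.9 at 120 min, and 9.33 and 48.4 at 240 min. At 240 min all 3 were at r of -1.08 or less in replicate 1, while in replicate 2 they were at -0.18 (*erg-4*), 0.40 (*erg-14*), and 2.27 (*erg-6*). Of the other 17 sterol genes, 0 were called lower at 60 min and 2 at 120 min, the HMG-CoA synthase gene *erg-13* and the phosphomevalonate kinase gene *erg-15*, which were named after their values were seen. With the block 5 and 8 were called lower and 1 and 0 raised. Other lipid genes selected were NCU09858, named as an acylamide desaturase and listed with the sphingolipid genes, NCU03768, a lysophospholipase, and NCU06342, a phospholipase D. Their r was -1.62 and -1.42, -1.04 and -1.15, and -1.41 and -1.23 at 120 min. Of 16 other sphingolipid genes, 1 was called lower at 60 min and 2 at 120 min (6 and 4 lower and 2 and 2 raised with the block), and of 4 tested phospholipid synthesis genes 0 were called at either time (2 and 1 lower and 1 and 1 raised with the block).

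The largest group with a common role, 12 genes, serves rRNA synthesis and ribosome assembly, although genes with *rbg* symbols are not in it. *rpo-18* encodes the largest subunit of RNA polymerase I and had 15.5 and 7.78 FPKM in the dark, 15.6 and 7.16 at 15 min, 2.82 and 1.49 at 60 min, 3.58 and 2.07 at 120 min, and 5.22 and 7.06 at 240 min. *un-18*, known as the gene of the second largest subunit, followed with 12.7 and 6.74 FPKM in the dark, 9.17 and 6.11 at 15 min, 2.99 and 2.49 at 60 min, 4.45 and 2.40 at 120 min, and 5.49 and 5.54 at 240 min. The level of *rpo-18* at 15 min was like that in the dark in both replicates, and r at 60 min was -2.11 and -1.82. NCU01675, named for the assembly factor RRP12, had r of -2.35 and -1.81 at 60 min, and *rmt-3*, the rRNA methyltransferase SPB1, had -2.16 and -1.65. NCU08323, bystin, which in yeast acts in the small subunit precursor, had -1.25 and -1.62. NCU08951, a subunit of the H/ACA particle that guides pseudouridylation, had -1.62 and -1.60, and NCU09488, with an SDA1 domain, had -1.75 and -1.37. The nucleolar gene *nop12* was the member of the group with the widest spread at 240 min: the dark samples had 13.5 and 9.53 FPKM, the 15 min samples 9.51 and 7.48, the 60 min samples 3.26 and 1.66, the 120 min samples 3.35 and 3.08, and the 240 min samples 5.68 and 27.1. Also in the group are *msp-11*, *drh-13*, and *drh-2*, for RNA helicases named after yeast PRP43, HAS1, and DBP3, with r at 60 min of -1.87 and -1.64, -1.72 and -1.56, and -1.34 and -1.09, and NCU09094, named for IPI1, with -1.75 and -1.24. The median r of the 12 genes was -1.76 and -1.61 at 60 min and -1.66 and -1.47 at 120 min.

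Other genes of rRNA metabolism were called lower as well. Of 27 other rRNA processing and assembly genes without *rbg* symbols, 11 were called lower at 60 min and 4 at 120 min, or 24 and 20 with the block, and none was called raised in either fit. Their median log2 fold change was -1.25 at 60 min and -0.97 at 120 min. The 16 other genes of the RNA polymerase list are not all genes of rRNA synthesis. They include subunits of the other nuclear RNA polymerases, and *rpo-1* and *rpo-19*, whose product names are not those of polymerases. Of these 16, 2 were called lower at each time (7 and 4 lower and 0 and 1 raised with the block). The 32 *rbg* genes had a median r of -0.50 and -0.43 at 15 min, -1.53 and -1.33 at 60 min, -1.36 and -1.12 at 120 min, and -0.69 and -0.02 at 240 min in replicates 1 and 2. Their 15 min values were thus about at the threshold that the 82 genes had to exceed. The difference between them and the 82 genes was not tested.

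Translation and tRNA genes were few. NCU02511 and NCU06336, both tRNA methyltransferases, had r of -1.35 and -1.32 and of -1.43 and -1.17 at 120 min, and 3 of 10 other tRNA modification genes were called lower at both 60 and 120 min (8 at each with the block). *eif4E*, for the cap-binding initiation factor, had 46.6 and 35.1 FPKM in the dark, 45.3 and 28.7 at 15 min, 22.4 and 11.3 at 60 min, 22.6 and 12.9 at 120 min, and 21.3 and 63.5 at 240 min. *un-10*, for a subunit of initiation factor 3, was more abundant, and the dark samples had 91.7 and 70.9 FPKM, the 15 min samples 73.1 and 55.8, the 60 min samples 42 and 32.2, the 120 min samples 34 and 27.8, and the 240 min samples 39.2 and 76.3. Of 21 other initiation factor genes, 0 were called at 60 min and 1 was lower at 120 min (9 and 10 lower and 2 and 0 raised with the block). All 4 genes of this group were above the dark level at 240 min in replicate 2 and below it in replicate 1.

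In DNA replication and deoxynucleotide supply, 4 of 32 genes were selected. *un-24*, known as the gene of the large subunit of ribonucleotide reductase, had 36.9 and 21.8 FPKM in the dark, 33 and 21.3 at 15 min, 12.1 and 8.90 at 60 min, 13.8 and 7.94 at 120 min, and 12.1 and 13.9 at 240 min. *drl-1*, for MCM2, a subunit of the replicative helicase, had 11.2 and 7.99 FPKM in the dark, 8.25 and 5.56 at 15 min, 2.42 and 1.48 at 60 min, 2.23 and 1.49 at 120 min, and 3.74 and 7.53 at 240 min. *pyr-8* encodes thymidylate synthase, the source of dTMP, and the dark samples had 15.5 and 18.5 FPKM, the 15 min samples 12.2 and 14, the 60 min samples 5.61 and 6.52, the 120 min samples 4.93 and 4.40, and the 240 min samples 5.09 and 12. *dtn-1*, for the dUTP nucleotidohydrolase that keeps uracil out of DNA, had 59.6 and 92.3 FPKM in the dark, 43.8 and 72.7 at 15 min, 26.9 and 38.6 at 60 min, 16.7 and 22.7 at 120 min, and 34.8 and 54.5 at 240 min. The 4 genes were low at both 60 and 120 min, as the rule requires. Of the other 28 genes, 16 were called lower at 60 min and 14 at 120 min, or 25 at each with the block, and 0 were called raised in either fit. Their median log2 fold change was -1.34 at 60 min and -1.30 at 120 min. The genes that failed the block fit at both times were named after their values were seen. They are *rdr-1*, for the small subunit of ribonucleotide reductase, *rpa-3*, and *div-26*. Their log2 fold changes at 60 min were -0.32 ± 0.45, 0.15 ± 0.45, and -0.04 ± 0.33, with the SE of the fit without the block. In the nuclear pore list, which holds *nup-19* among the 82 genes (r of -1.07 and -1.32 at 60 min), 3 of 26 other genes were called lower at 60 min and 2 at 120 min, but 21 and 19 with the block. By their product names not all of these are pore proteins. They include importins, peptidyl-prolyl isomerases, and *nup-32*, named a ribosome biogenesis protein and also counted in the rRNA list. Of 5 genes of chromosome condensation and segregation, 1 was called lower at 60 min and 0 at 120 min (3 at each with the block).

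**Figure D3:**
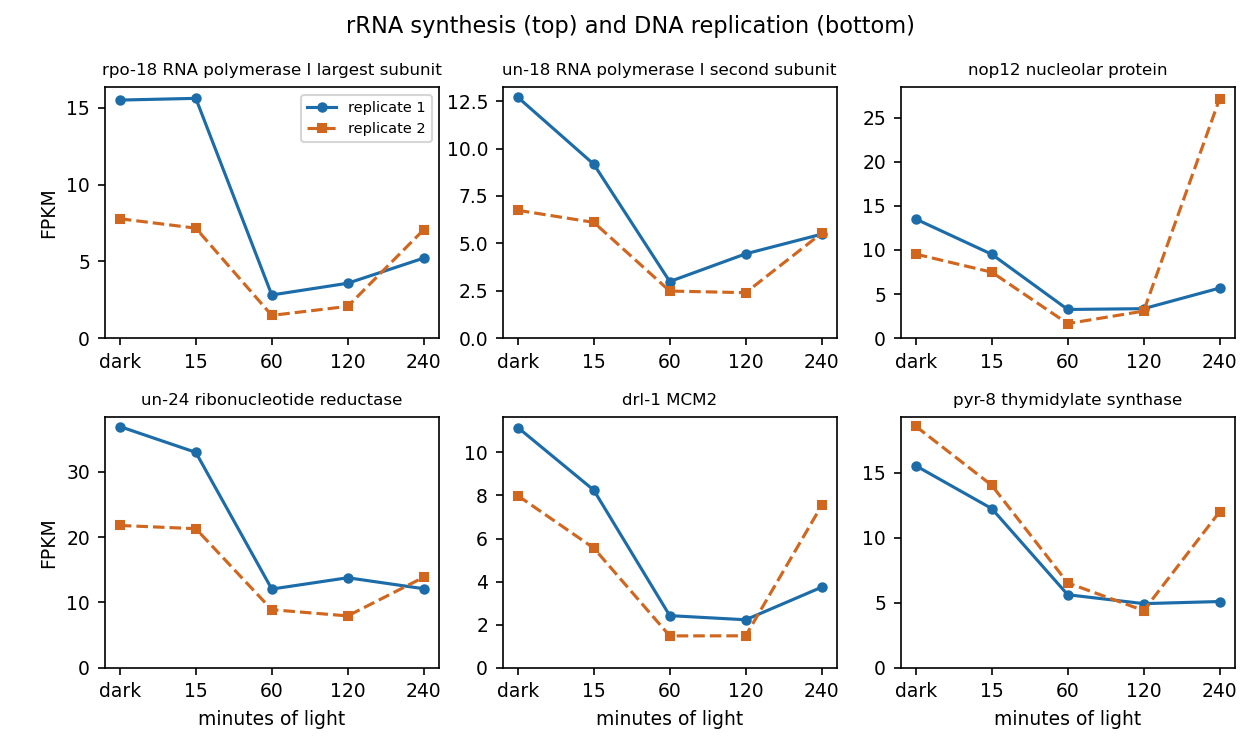
FPKM is plotted against minutes of light (times evenly spaced) for 3 genes of rRNA synthesis (top row) and 3 of DNA replication (bottom row), replicate 1 as circles and replicate 2 as squares. All 6 are low at 60 and 120 min in both replicates, and *nop12* reaches 27.1 FPKM at 240 min in replicate 2 against 5.68 in replicate 1.

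The secretory pathway contributed 9 genes of glycosylation, vesicle traffic, and cell wall enzymes. *gt15-1*, named as an alpha-1,2-mannosyltransferase, had 42.6 and 44.8 FPKM in the dark, 39.9 and 41.5 at 15 min, 13.4 and 11.9 at 60 min, 14.3 and 14.4 at 120 min, and 20.2 and 28.2 at 240 min. *vtr-5*, for the GDP-mannose transporter that feeds the Golgi mannosyltransferases, had 32.1 and 22 FPKM in the dark, 32.3 and 24.9 at 15 min, 13.3 and 10.1 at 60 min, 12.5 and 8.65 at 120 min, and 19.1 and 30.04 at 240 min. *gt22-1*, for a GPI mannosyltransferase, had r of -1.89 and -1.86 at 120 min, *gt24-1*, for the glucosyltransferase that marks unfolded glycoproteins, -1.10 and -1.03, and *gt4-1* -1.25 and -1.05. NCU01824, UDP-galactopyranose mutase, which supplies galactofuranose for fungal glycans, was among the lowest at 120 min. For this gene, the dark samples had 92.7 and 60.8 FPKM, the 15 min samples 92.8 and 60.9, the 60 min samples 33.1 and 23, the 120 min samples 19.8 and 12.5, and the 240 min samples 24.9 and 73.3. Its r at 15 min was 0.000576 and 0.0036, and at 240 min the replicates lay on opposite sides of the dark. The other 3 were *cvc-2*, the coatomer beta' subunit, with r at 120 min of -1.04 and -1.07, *gh47-4* with -1.84 and -1.77, and *gh16-6* with -1.73 and -1.72, the last 2 being glycosyl hydrolases. Of 35 other tested glycosyltransferase and glycosylation genes, 2 were called lower at 60 min and 1 at 120 min, where 3.55% and 3.59% of all genes were called lower. With the block 9 and 9 were lower and 6 and 3 raised. Of all genes, 22.1% and 19.5% were lower and 14.4% and 11.6% raised in that fit.

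Single genes of other pathways were selected as well, and some of them were abundant in the dark. *ilv-2*, for ketol-acid reductoisomerase of branched-chain amino acid synthesis, had the highest dark level of the 82 genes, with 469.8 and 442 FPKM in the dark, 516 and 456 at 15 min, 194 and 169 at 60 min, 128 and 113 at 120 min, and 156 and 608 at 240 min. It was one of 2 genes selected from a list of 84 tested amino acid genes, and the other was the sulfate permease gene *cys-14*, for which the dark samples had 21.9 and 15.1 FPKM, the 15 min samples 36.4 and 23.7, the 60 min samples 8.33 and 5.71, the 120 min samples 7.05 and 4.97, and the 240 min samples 11.6 and 23.8. Of the other 82 genes in that list 5 were called lower and 4 raised at 60 min, and 7 lower and 1 raised at 120 min. With the block these counts were 17 and 16, and 22 and 9. Of all genes, 22.1% were lower and 14.4% raised at 60 min in that fit, and 19.5% and 11.6% at 120 min. *gcy-1*, named Gld1 for a glycerol dehydrogenase, had 241 and 170.5 FPKM in the dark, 215 and 144 at 15 min, 76 and 58.2 at 60 min, 76.4 and 63.1 at 120 min, and 70.3 and 37.4 at 240 min. *cor1*, after its higher 15 min values, stayed low to the end of the series in both replicates, with 75.4 and 72.3 FPKM in the dark, 105 and 99.6 at 15 min, 26.8 and 23.7 at 60 min, 24.6 and 24.3 at 120 min, and 24 and 28.3 at 240 min. NCU06327, a cytochrome P450, had 173 and 116 FPKM in the dark, 168 and 108 at 15 min, 85.2 and 47.3 at 60 min, 43.3 and 26.5 at 120 min, and 35.9 and 91.9 at 240 min. *mak-1*, for the MAP kinase of the cell wall integrity pathway, had r of -1.08 and -1.11 at 60 min and -1.05 and -1.15 at 120 min. The tetraspanin gene *pls-1* had 10.8 and 6.56 FPKM in the dark, 11.6 and 6.30 at 15 min, 4.86 and 2.05 at 60 min, 4.05 and 2.06 at 120 min, and 4.62 and 27 at 240 min. *tom70*, for a receptor of mitochondrial protein import, had r of -1.25 and -1.09 at 120 min, and *mic-15*, a mitochondrial carrier, -1.93 and -2.16. Of 20 other import genes 0 were called at either time (5 and 7 lower with the block), and of 15 other purine and pyrimidine genes 2 were called lower at 60 min and 3 at 120 min (4 and 5 lower and 2 and 1 raised with the block). The chaperone genes *hsp70-4*, NCU02490 (a DnaJ protein), and *ppi-1* had r of -1.35 and -1.34, of -1.29 and -1.31, and of -1.27 and -1.19.

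Over the 15 lists together, which hold 325 tested genes that are not among the 82, 47 were called lower and 4 raised at 60 min, where 3.55% of all tested genes were lower and 2.68% raised. At 120 min 44 were lower and 1 raised, where 3.59% of all were lower and 1.37% raised. With the replicate block 148 were lower and 30 raised at 60 min (22.1% and 14.4% of all genes), and 149 were lower and 17 raised at 120 min (19.5% and 11.6%). The lists were chosen with earlier results of these data known. The shares over all genes are therefore no independent background, and the counts only describe the lists. Leaving out the 240 min samples, 1 or both, gave 137 to 143 called lower at 60 min and 145 to 151 at 120 min. Leaving out any 1 of the other 8 samples gave 0 to 10 and 0 to 7, with 0 at both times without either dark sample, 0 at 60 min without either 60 min sample, and 0 at 120 min without either 120 min sample. The scaling of the samples changed the balance of the calls over all genes. At 60 min the deposited values gave 273 lower and 206 raised, quantile normalization 337 and 277, and median scaling 346 and 575. At 120 min these counts were 276 and 105, 326 and 224, and 340 and 406.

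Of the 82 genes, 22 have no known function by their product names, and 19 are named only as hypothetical proteins. Their dark levels ranged from 2.59 to 72.1 FPKM, and their median r was -1.39 and -1.38 at 60 min and -1.43 and -1.39 at 120 min. The one with the lowest mean r at 120 min was NCU07696, with 72.1 and 55.6 FPKM in the dark, 62.5 and 41.6 at 15 min, 28.7 and 13 at 60 min, 18.2 and 9.49 at 120 min, and 9.77 and 56.4 at 240 min. At 240 min it held the lowest value of the 82 genes in replicate 1 and was at its dark level in replicate 2. NCU03054 differed in this, and the dark samples had 11.7 and 11.8 FPKM, the 15 min samples 11.7 and 10.62, the 60 min samples 3.63 and 3.80, the 120 min samples 4.24 and 3.86, and the 240 min samples 3.61 and 5.52.

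In the order of genes of assembly NC12, 3 pairs of the 82 genes are direct neighbors. These are *cel-1* and *cel-2*, the lysophospholipase gene NCU03768 and *naf-2*, and NCU05835 and *gh47-4*. The r of NCU03768 and *naf-2* was -1.68 and -1.87 and -1.17 and -1.08 at 60 min. For NCU05835 and *gh47-4* it was -1.72 and -1.58 and -1.84 and -1.77 at 120 min. The genes NCU06783 and NCU06785 of ATP citrate lyase, and NCU09497 and NCU09499, are separated by 1 gene each. In the dark the 82 genes had a median FPKM of 17.8 against 9.14 for all expressed genes, and a gene near 0 in the dark could not have passed the rule.

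**Figure D4:**
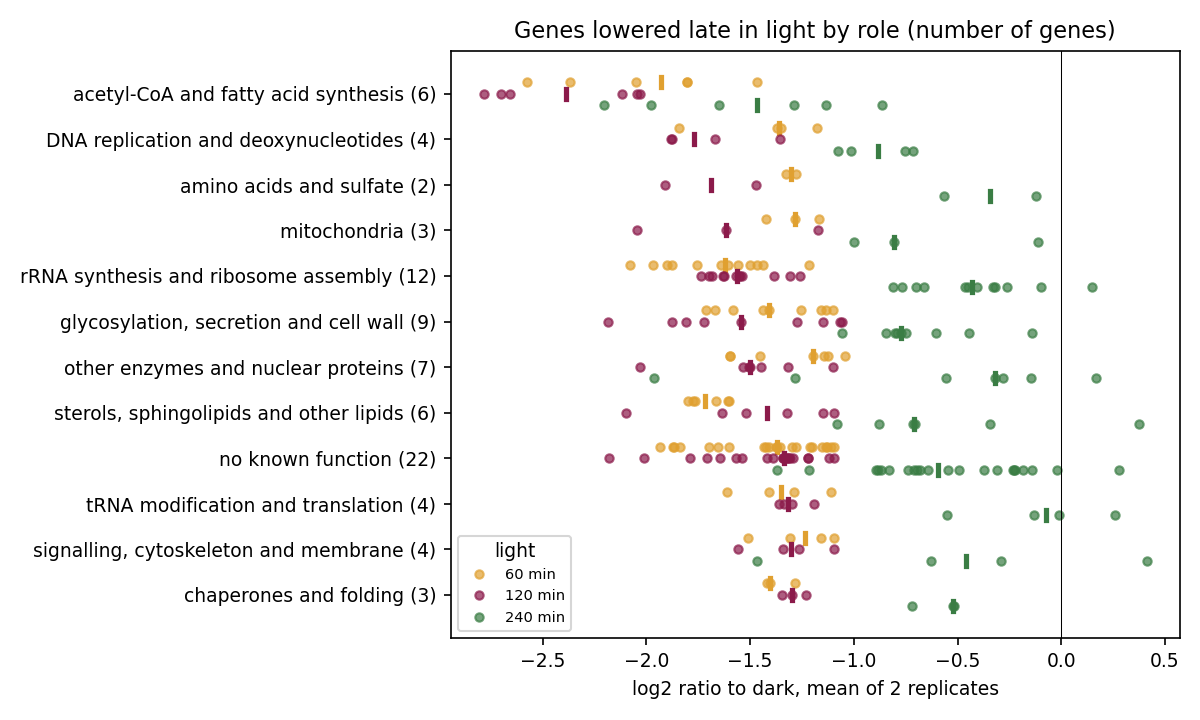
The mean log2 ratio to the dark over both replicates is plotted for each of the 82 genes at 60, 120, and 240 min, by role, with bars at the medians and the number of genes in parentheses. The 6 acetyl-CoA and fatty acid genes have the lowest median at 120 min, and all 6 are at -0.86 or less at 240 min.

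The 240 min samples did not enter the rule, but the dark samples they are compared with did. Genes whose dark values were high by chance were more likely to be selected, so the ratios and tests at 240 min lean toward values below the dark by an amount that was not measured. The shares over all genes given beside the counts do not correct for this, and the counts are a description of the 82 genes. All 82 genes were below the dark at 240 min in replicate 1, and 49 of them at -1 or less. In replicate 2, 49 were below the dark and 33 above it, with 9 at -1 or less and 5 at 1 or more. In all, 49 of the 82 were below the dark in both replicates, against 32.0% of all expressed genes, and 5 were at -1 or less in both, against 1.26%. The 5 are *cel-2*, *cel-1*, *gcy-1*, NCU08535, and *cor1*. The change in r between 120 and 240 min had a median of 0.46 and 1.41 over the 82 genes in replicates 1 and 2, and of 0.00308 and -0.15 over all expressed genes, but the 120 min values were selected to be low, which favors a rise from them. The value in replicate 2 was above that in replicate 1 for 71 of the 82 genes (86.6%), compared with 41.9% of all expressed genes.

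With limma on all 10 samples, 6 of the 82 genes were called lower at 240 min (7.32%), where 1.05% of all tested genes were lower and 0.325% raised, and 0 of the 82 were raised. An unadjusted p under 0.05 was found for 17. The acetyl-CoA and fatty acid genes supplied 3 of the 6. *cel-2* had a log2 fold change of -2.21 ± 0.57 (SE, n = 2 each, adjusted p = 0.169, 0.00954 with the block), acetyl-CoA carboxylase NCU08535 of -1.65 ± 0.41 (SE, n = 2 each, adjusted p = 0.156, 0.0145 with the block), and NCU06785 of ATP citrate lyase of -1.29 ± 0.36 (SE, n = 2 each, adjusted p = 0.193, 0.0459 with the block). *cel-1* missed the threshold without the block, with -1.98 ± 0.61 (SE, n = 2 each, adjusted p = 0.232, 0.0124 with the block). The others were *gcy-1* with -1.96 ± 0.42 (SE, n = 2 each, adjusted p = 0.114, 0.0122 with the block), *cor1* with -1.47 ± 0.29 (SE, n = 2 each, adjusted p = 0.0935, 0.0152 with the block), and NCU03054 with -1.22 ± 0.29 (SE, n = 2 each, adjusted p = 0.149, 0.0236 with the block). All 6 were lower in both replicates.

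Taking the replicate number into the fit changed this count. The number marks the separate cultures as well as the RNA isolation method, and these cannot be told apart. The block takes the replicate difference of a gene to be the same at all times. Same-numbered samples deviated together less at 240 min (correlations of 0.334 to 0.412 with the other times) than among the other times (0.760 to 0.841). The block fit may therefore understate the spread at 240 min. With the replicate number as a block, 35 of the 82 genes were called lower at 240 min (42.7%), against 15.0% of all genes lower and 5.11% raised. They include 5 of the 6 acetyl-CoA and fatty acid genes, 3 of the 4 DNA replication genes, 5 of the 9 glycosylation, secretion, and cell wall genes, and all 3 chaperone genes. They include 3 of the 12 rRNA and ribosome assembly genes and 0 of the 4 tRNA and translation genes. The difference between these groups was not tested. Under scalings that shift the balance of all calls at 240 min (81 lower and 25 raised as deposited, 126 and 83 with quantile normalization, 136 and 104 with median scaling), 5 of the 82 genes were called lower in each.

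Each 240 min sample decides part of the result. Without the 240 min sample of replicate 2, 38 of the 82 genes were called lower (46.3%), against 11.8% of all genes. Without that of replicate 1, 15 were called lower (18.3%) and 8 raised (9.76%), against 27.6% and 8.71% of all genes. In this fit *erg-6*, *pls-1*, and *nop12* were among the 8, with log2 fold changes of 1.90, 1.57, and 1.19. Such a fit takes the lone 240 min sample to vary like the samples of the other times. Leaving out any 1 of the 8 dark, 15, 60, and 120 min samples left 0 of the 82 genes called by limma, with between 5 and 13 at an unadjusted p under 0.05.

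**Figure D5:**
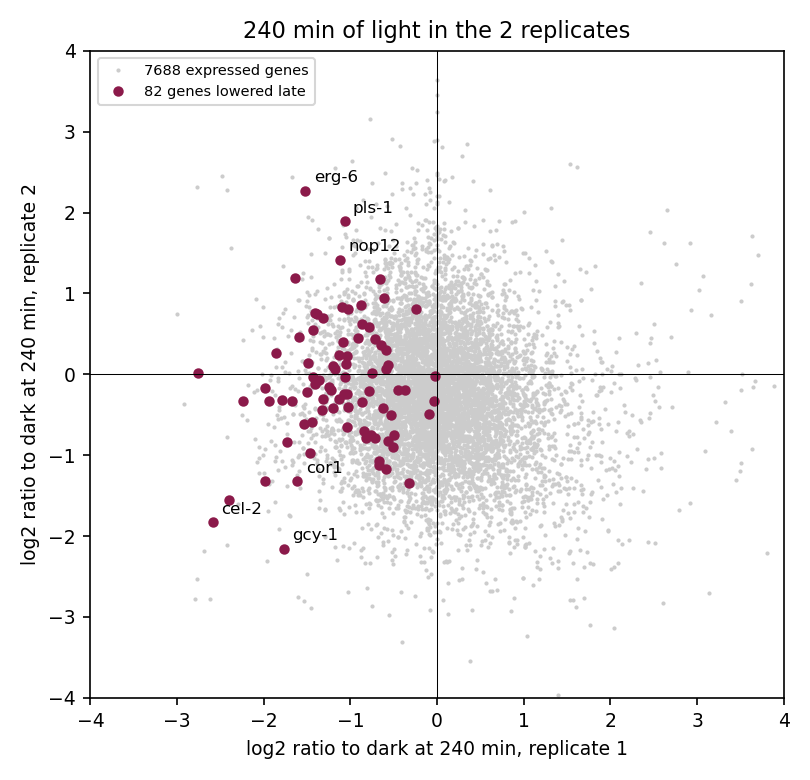
The log2 ratio to the dark at 240 min in replicate 2 is plotted against that in replicate 1, with 7688 expressed genes in gray (16 fall outside the axes) and the 82 genes in red. All 82 are left of 0 in replicate 1, and 33 of them are above 0 in replicate 2, with *erg-6* the highest at 2.27.

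For comparison, 175 other genes met the same limits at 60 and 120 min but were already at -0.5 or less at 15 min in both replicates. Genes that missed the 15 min limit in 1 replicate alone, such as *fkr-4* and *cyt-5*, were not included. The median r of the 175 genes was -0.81 and -0.83 at 15 min, -1.56 and -1.58 at 60 min, and -1.59 and -1.51 at 120 min, values that their selection sets. At 240 min, which neither selection used, their median was -0.94 and -0.37, next to -1.07 and -0.19 for the 82 genes and -0.04 and -0.26 for all expressed genes in replicates 1 and 2. Both sets share the dark samples and the difference between them was not tested.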

How the data were processed

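The authors aligned the reads to *N. crassa* assembly 10 (annotation 10.6) with TopHat2 2.0.5, after CASAVA 1.8.2 had called the bases, and deposited Cuffdiff FPKM values per gene for each of the 10 samples. FPKM is scaled to length and to mapped fragments, so a large rise of a few genes lowers the others. Groups and replicate numbers came from the sample titles. The 82 genes and the lists of genes were chosen with earlier results of these data known.

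The test was that of limma 3.58.1 (R 4.3.3), run on log2 values of FPKM + 1 for the 7688 expressed genes, with 1 mean per time point, all 10 samples, and a variance trend. A fold change on this scale understates the change of low genes. The two-sided p-values of the 4 comparisons with the dark were adjusted together (Benjamini-Hochberg), and 0.2 was the threshold, as in the study. The replicates are separate cultures. Same-numbered samples share the RNA isolation method. They deviated together from the means of their time points, with correlations over genes of 0.760 to 0.841 among the dark, 15, 60, and 120 min samples. Correlations with the 240 min samples were only 0.334 to 0.412, so the numbers pair those samples less closely. Results with the replicate number as a block are given where they differ. The fit was checked on simulated data.

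The 15 lists were made from symbols and product names in the tables of the study, which name 4943 of the 9728 genes, and from RefSeq (assembly NC12, which 9218 loci match). Its positions were used only for the order of genes, and no coordinates are given, since its build differs. A symbol rule for tRNA modification that caught transporter genes was dropped after the files were seen. Roles were assigned by hand from product names. A search of promoters for motifs was planned and not run. Genes are named when they are in a list (at most 6 per list, by dark level), are among the 10 lowest at 120 min, the 5 most abundant in the dark, or the 5 lowest or 5 highest at 240 min, are adjacent, or lie nearest a threshold, and others of the 82 genes are named for their role. Python 3.11.15 and pandas 2.3.3 did the rest.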

Additional observations from a re-analysis of the deposited data

How the results depend on the processing

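The number of genes that passed the rule was 82, and it was 101 with a pseudocount of 0.1 (70 of the 82 shared), 66 with quantile normalization (47 shared), and 58 with median scaling (51 shared). It was 154 when the rule was met by the mean FPKM of the replicates, and 144 to 152 in 1 replicate alone. The median log2 ratio of the 82 genes at 240 min was -0.63 and ranged from -1.07 to -0.19 when 1 replicate was left out. At 240 min the count of the 82 genes called lower by limma was 6, stayed at 5 or 6 under the other pseudocount, filters, and scalings, was 35 with the replicate block, and ranged from 0 to 38 when 1 sample was left out. The count of all genes called at 240 min was 106, and it was 1548 with the replicate block, 169 with no filter on low values, 209 with quantile normalization, 240 with median scaling, and 0 to 2789 when 1 sample was left out. Of the other genes in the lists 47 were called lower at 60 min and 44 at 120 min, 148 and 149 with the replicate block, 137 and 145 without both 240 min samples, and 0 to 143 and 0 to 151 when 1 sample was left out. The counts rose when a 240 min sample was left out and fell when any other was, and the cause was not tested. For the 7 genes with a test printed at 240 min the direction was the same in all 112 alternatives, the call was lost in 54 and gained in 4. The replicate block, the filters on low values, and the loss of a 15, 60, or 120 min sample cannot change a fold change at 240 min. The direction was therefore fixed in these alternatives, and its agreement there shows no robustness. With 2 samples per time point and no read counts, the precision of a single gene rests on the spread shared over all genes.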
